A study of Mus musculus with 8 samples.

Results

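Immediate early genes are the genes that a cell switches on first, within minutes of a stimulus and without new protein synthesis, and 10 of them were followed here through islets isolated from control mice and from mice that lacked Fbln5 in beta cells. They were chosen by name as genes that answer calcium entry and the stress of islet isolation: the AP-1 subunits Fos, Fosb, Jun and Junb, the transcription factors Atf3, Egr1, Nr4a1 and Npas4, the nuclear protein gene Ier2, and the phosphatase gene Dusp1. Through the RefSeq accessions on the arrays, all 10 were found among 22911 genes measured, with 12 of the 56605 probes: 8 genes had 1 probe, and Fosb and Junb had 2.

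In a resting cell the promoters of these genes are already occupied by CREB, by serum response factor and by its ternary complex partners. Calcium entry, cyclic AMP or mitogen-activated protein kinases activate those factors, a brief burst of transcription follows, and the mRNAs are destroyed quickly. In beta cells the same genes answer glucose through membrane depolarization and calcium, and in tissues taken apart with collagenase they are also known to answer the digestion itself.

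Total islet RNA was measured on 8 one-colour Agilent arrays of 1 slide, 4 for each genotype. βFbln5KO mice carried Fbln5-floxed alleles and Ins1-Cre, a transgene in which the mouse insulin 1 promoter drives Cre recombinase, so that the deletion was aimed at beta cells and the other islet cells were to keep the gene. Control mice were Fbln5-floxed without Cre, so that Cre itself and the loss of Fbln5 cannot be told apart. All mice were male littermates of 11 weeks, each array received the RNA of 150 islets taken up straight after isolation, with no culture or stimulus in between, and the sources used here do not say whether islets of several mice were pooled. The labels call the samples of a group biological replicates.

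Signals are given on the log2 scale after each array's 75th percentile was subtracted, so that 1 unit is 2-fold and 0 is the array's upper quartile. Probes differ in their brightness, so the signal of 1 gene is compared between arrays and is not read as its abundance against another gene. The 75th percentile was 709 to 1012 intensity units in control and 910 to 1055 in βFbln5KO. The spots that the scanner software marked as well above background numbered 33592 to 34889 in control and 31214 to 33549 in βFbln5KO. Controls filled 1 row of arrays on the slide and βFbln5KO the other, and the row and the genotype cannot be told apart. The deleted gene was read as a check on the labels. Fbln5 signal was −1.70, −1.32, −2.05 and −1.83 in control 1 to 4 and −2.74, −2.40, −2.38 and −1.37 in the arrays labelled βFbln5KO 1 to 4, so the last of these lay within the control range. The log2 difference of Fbln5 was −0.50 (95% interval −1.15 to 0.15). Its unadjusted p was 0.115 and its adjusted p 0.342 in limma, and the exact permutation test gave p = 0.171. By themselves these arrays do not establish the loss of Fbln5. Beta cell markers summed to 1316 to 1589 times the 75th percentile in control and to 1276 to 1333 times in βFbln5KO. The probe of Ins2 was the brightest, and all 10 markers were well above background on every array.

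The brightest probe of each member stands for the gene, and for all 10 it was well above background on all 8 arrays, so the values are measurements and not bounds. No member passed an adjusted p of 0.05 in limma, where 0.0106% of all probes did, in either direction. At an unadjusted p under 0.05, Fos, Fosb and Npas4 were higher in βFbln5KO and no member was lower. Among the 26612 probes well above background on every array, 0.853% were higher and 5.42% lower by the same rule. Over all 56605 probes 11730 were higher and 2246 lower by it, and only 227 of the former were well above background on every array, so dim probes weigh on every adjusted p given here. On average 8 members were higher and 2 were lower, and the median log2 difference over the 10 was 0.17, beside −0.025 over all those probes. The median was 0.07 without βFbln5KO 3 and 0.28 without control 4. Islet RNA is a mixture, and fewer cells of a type cannot be told apart from less RNA per cell in any of these values.

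**Figure D1:**
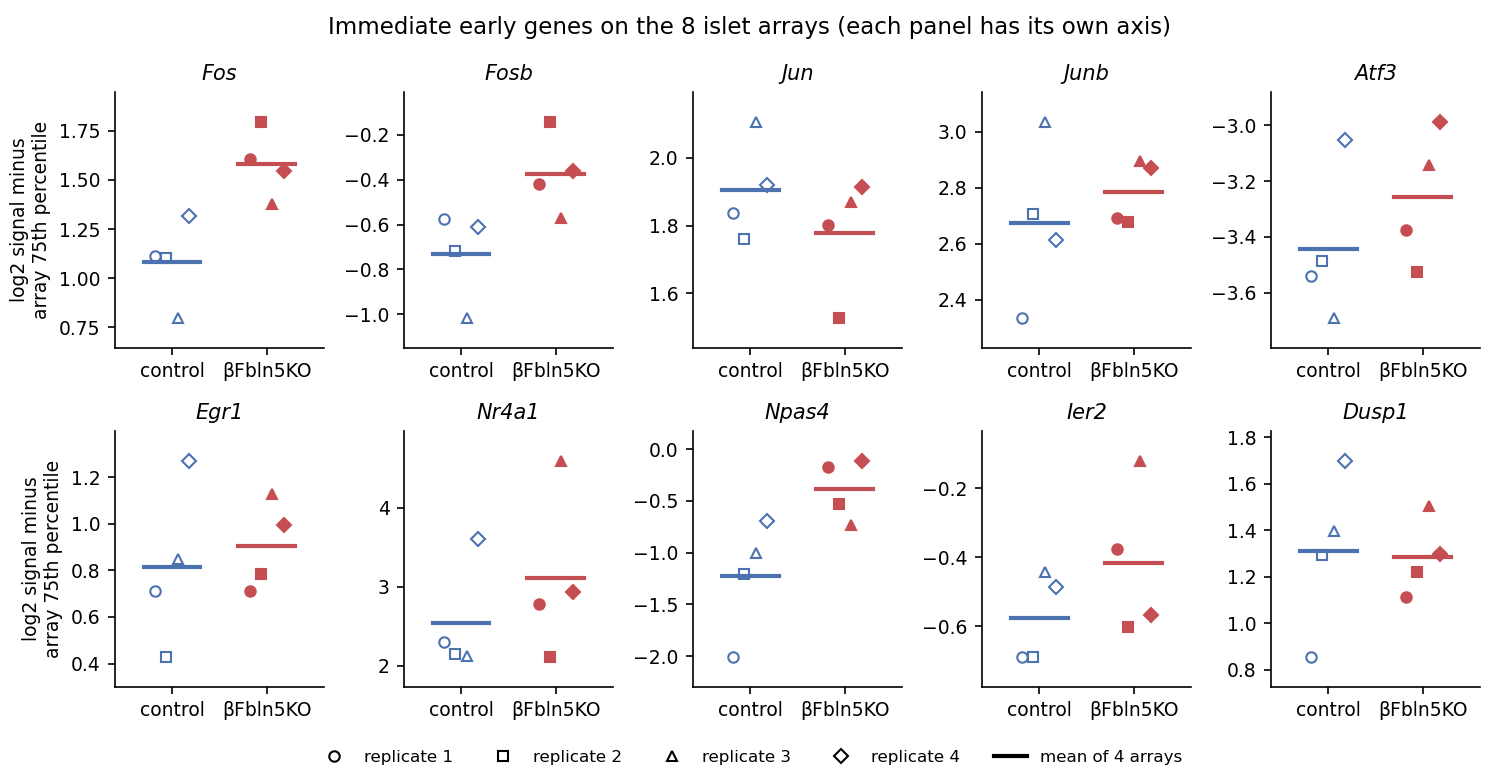
Log2 signal minus the array's 75th percentile (y axis, its own scale in each panel) of the 10 immediate early genes on the 4 control arrays (open symbols) and the 4 βFbln5KO arrays (filled symbols). The symbol shape gives the replicate number and the bar the mean of 4 arrays. For Fos and Fosb the 2 groups do not overlap. For Nr4a1, control 4 and βFbln5KO 3 stand above the other arrays of their group.

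Fos encodes the AP-1 subunit that pairs with Jun proteins and is the classical reporter of recent cell stimulation. Its gene lies on chromosome 12 of GRCm38.p6, from 85473890 to 85477274. Fos signal was 1.11, 1.105, 0.80 and 1.32 on control arrays 1 to 4 and 1.60, 1.80, 1.38 and 1.54 on βFbln5KO arrays 1 to 4. Every βFbln5KO array was above every control array, and the nearest pair, βFbln5KO 3 and control 4, was 0.06 apart. Control arrays averaged 1.08 ± 0.21 (SD, n = 4), and βFbln5KO arrays averaged 1.58 ± 0.17 (SD, n = 4). The log2 difference was 0.50 (SE 0.12, 95% interval 0.23 to 0.77), a ratio of 1.41, with an unadjusted p of 0.00257 and an adjusted p of 0.0728 in limma. The exact two-sided permutation test gave p = 0.0286, the smallest that 4 arrays against 4 allow. Over 19 alternative settings the difference of Fos stayed between 0.40 and 0.58 with an unadjusted p under 0.05, but its adjusted p ran from 0.0383 to 1. It was 0.0383 without βFbln5KO 4, the array on which Fbln5 lay within the control range, but 20.4% of all probes passed an adjusted p of 0.05 in that fit and the unadjusted p of Fos rose to 0.00755. It was 0.657 when the adjustment was made over the probes that passed the filter on dim signals.

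Fosb, whose protein and its stable splice form take the place of Fos in AP-1 after repeated stimulation, lies on chromosome 7 from 19302696 to 19310118. Fosb signal was −0.57, −0.72, −1.02 and −0.61 on the control arrays and −0.42, −0.14, −0.57 and −0.36 on the βFbln5KO arrays. The groups were again separate, but only just: βFbln5KO 3 exceeded control 1 by 0.0047. The log2 difference was 0.36 (SE 0.12, 95% interval 0.08 to 0.63), a ratio of 1.28, with an unadjusted p of 0.0172 and an adjusted p of 0.0970 in limma, and p = 0.0286 in the exact permutation test. Over the probes that passed the filter on dim signals the adjusted p of Fosb in limma was 0.678. A further Fosb probe was well above background on 1 array only, control 1, and gives no comparison. With the mean of both probes in place of the brighter one, the log2 difference was 0.09 (unadjusted p of 0.791 in limma). Fos and Fosb are the 2 members without overlap, both higher in βFbln5KO. Of all probes well above background on every array, 0.628% were separate and higher in this way and 3.39% separate and lower.

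Npas4 encodes a transcription factor that answers calcium entry rather than growth factors, and that is known in beta cells as well as in neurons. It lies on chromosome 19 from 4984353 to 5003439. Npas4 signal was −2.01, −1.20, −1.004 and −0.70 on the control arrays and −0.17, −0.53, −0.73 and −0.11 on the βFbln5KO arrays. It had the largest mean difference among the members, and 1 pair of arrays overlapped, control 4 lying 0.03 above βFbln5KO 3. The log2 difference was 0.84 (SE 0.27, 95% interval 0.24 to 1.45), a ratio of 1.79, with an unadjusted p of 0.0122 and an adjusted p of 0.0807 in limma, and p = 0.0571 in the exact permutation test. Over the probes that passed the filter on dim signals the adjusted p of Npas4 in limma was 0.657. Control 1 was the lowest of the 8 arrays, and without it the log2 difference was 0.58 (unadjusted p of 0.0124, adjusted p of 0.154, within a range of 0.0490 to 1 over the alternative settings).

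CREB, which carries the calcium and cyclic AMP signal, binds the cAMP response element. Promoters are therefore shown for Fos, Fosb and Npas4, the members with an unadjusted p under 0.05 in limma, and for Nr4a1, the most variable member. They are the 250 bases before the transcript start that the RefSeq table used here gives for each gene on GRCm38.p6, which for Fosb, Npas4 and Nr4a1 lies inside the outer bounds of the gene, read 5′ to 3′ in the direction of the gene, and capitals mark the core of that element, TGACG, on either strand (CGTCA where it lies on the opposite strand). Fos is chr12:85473640-85473889 on the plus strand, Fosb chr7:19310046-19310295 on the minus strand, Npas4 chr19:4989972-4990221 on the minus strand and Nr4a1 chr15:101266596-101266845 on the plus strand.
Fos: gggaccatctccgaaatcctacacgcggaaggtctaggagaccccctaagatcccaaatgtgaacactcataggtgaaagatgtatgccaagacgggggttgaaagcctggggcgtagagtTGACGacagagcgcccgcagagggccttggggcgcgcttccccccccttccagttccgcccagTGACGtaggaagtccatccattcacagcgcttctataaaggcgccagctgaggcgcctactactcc
Fosb: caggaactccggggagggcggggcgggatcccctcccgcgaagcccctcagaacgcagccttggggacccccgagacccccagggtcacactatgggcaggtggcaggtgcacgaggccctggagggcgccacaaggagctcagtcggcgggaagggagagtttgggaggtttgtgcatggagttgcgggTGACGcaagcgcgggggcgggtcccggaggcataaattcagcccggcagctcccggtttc
Npas4: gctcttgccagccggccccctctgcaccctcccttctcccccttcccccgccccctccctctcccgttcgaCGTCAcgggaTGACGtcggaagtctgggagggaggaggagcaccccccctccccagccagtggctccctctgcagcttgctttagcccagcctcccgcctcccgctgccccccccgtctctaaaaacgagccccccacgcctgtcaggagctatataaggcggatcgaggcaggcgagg
Nr4a1: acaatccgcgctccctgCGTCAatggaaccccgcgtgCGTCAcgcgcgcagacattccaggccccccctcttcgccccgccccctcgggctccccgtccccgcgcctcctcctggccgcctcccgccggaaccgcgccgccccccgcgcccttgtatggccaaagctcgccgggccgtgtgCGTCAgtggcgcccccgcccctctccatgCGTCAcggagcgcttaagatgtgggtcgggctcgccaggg

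With the base before the start counted as −1, Fos held 2 such cores, from −129 and −66, Fosb 1 from −60, Npas4 2 from −179 and −169, and Nr4a1 4 from −233, −213, −69 and −40. The promoters of 8 of the 10 members were searched, and those of Ier2 and Egr1 were not. The core was found in 7 of these 8, with Jun the exception, and in 17.8% of 32841 promoters of the same length. The full element TGACGTCA, which contains the core on both strands, was found in Dusp1 and in 1.55% of all promoters. The EGR site GCGNGGGCG was found in Fosb and Nr4a1 (4.70% of all), the TATA box as TATAAA in Fos (12.4%), and the AP-1 site TGANTCA (6.75%) and the CArG box of serum response factor (1.47%) in none of the 8. Of the 7 members with the core, Fos, Fosb and Npas4 had an unadjusted p under 0.05 between the groups, and Nr4a1, Dusp1 (3 cores), Junb (1) and Atf3 (1) did not. These matches describe letters in a window. Sites farther than 250 bases before the start were not searched, so a site not found here may lie outside the window. Binding was not measured.

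Jun and Junb encode the partners of Fos in AP-1. Jun lies on chromosome 4 from 95049036 to 95052222, and Jun signal was 1.84, 1.76, 2.11 and 1.92 on the control arrays and 1.80, 1.53, 1.87 and 1.91 on the βFbln5KO arrays. The groups overlapped, with βFbln5KO 2, the array on which Fos and Fosb were highest, the lowest for Jun. Jun differed by −0.13 (SE 0.10, 95% interval −0.36 to 0.10), and by −0.04 without βFbln5KO 2. Junb, on chromosome 8 from 84976909 to 84978748, read 2.33, 2.71, 3.04 and 2.61 in control and 2.69, 2.68, 2.90 and 2.87 in βFbln5KO. All 4 βFbln5KO arrays lay within the control range, and the log2 difference was 0.11 (95% interval −0.19 to 0.42). The adjusted p in limma was 0.525 for Jun and 0.708 for Junb.

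Egr1, a zinc finger factor downstream of ERK, read 0.71, 0.43, 0.85 and 1.27 on the control arrays and 0.71, 0.78, 1.13 and 1.00 on the βFbln5KO arrays. The βFbln5KO arrays fell inside the control range, and the log2 difference was 0.09 (95% interval −0.30 to 0.48). Atf3, which stress kinases and the ATF4 pathway induce and which represses its own targets, lies on chromosome 1 from 191170296 to 191183333. Its signal was −3.54, −3.49, −3.69 and −3.05 in control and −3.38, −3.53, −3.14 and −2.99 in βFbln5KO, a log2 difference of 0.19 (95% interval −0.29 to 0.66). Control 4 and βFbln5KO 4 were the high arrays of either group, and the difference was 0.32 without the former and 0.095 without the latter.

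Ier2, a small nuclear protein gene on chromosome 8 from 84661331 to 84662852, read −0.69, −0.69, −0.44 and −0.49 in control and −0.37, −0.60, −0.12 and −0.57 in βFbln5KO. Ier2 differed by 0.16 (95% interval −0.11 to 0.43), and βFbln5KO 3 was the highest array, without which the difference was 0.06. Dusp1 encodes the phosphatase that switches off the kinases which induce it, and lies on chromosome 17 from 26505591 to 26508472. Its signal was 0.85, 1.29, 1.40 and 1.70 in control and 1.11, 1.22, 1.50 and 1.30 in βFbln5KO, all 4 of the latter within the control range. Dusp1 differed by −0.03 (95% interval −0.40 to 0.35), the smallest among the 10.

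**Figure D2:**
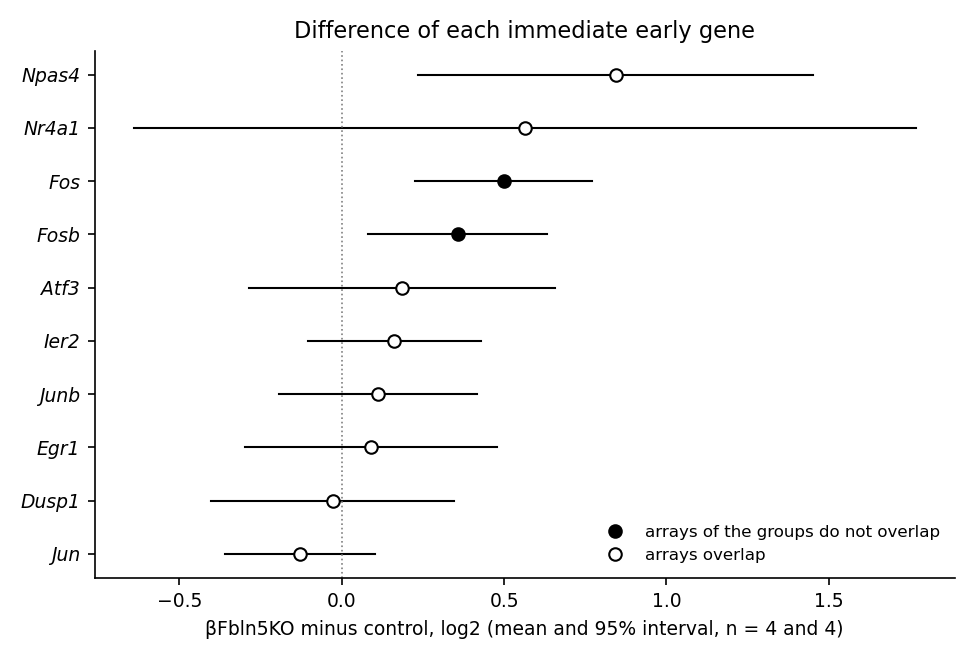
Log2 difference, βFbln5KO minus control (x axis), of the 10 immediate early genes (y axis). Circles are means of 4 arrays against 4 and lines the 95% interval from limma, with filled circles where the arrays of the groups do not overlap. The intervals of Npas4, Fos and Fosb lie above 0, and that of Nr4a1, from −0.64 to 1.77, is the widest.

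Nr4a1 encodes an orphan nuclear receptor that follows calcium and cyclic AMP signals closely, and was the member that varied most between islet preparations of the same genotype. It lies on chromosome 15 from 101253902 to 101274795. Nr4a1 signal was 2.30, 2.15, 2.12 and 3.60 on the control arrays and 2.78, 2.11, 4.60 and 2.93 on the βFbln5KO arrays. Control 4 stood above the other controls and βFbln5KO 3 above all arrays, so that 1 array of each group set the spread. The βFbln5KO arrays alone spanned 5.64-fold and the control arrays 2.80-fold. The log2 difference was 0.56 (SE 0.53, 95% interval −0.64 to 1.77), with p = 0.316 unadjusted and 0.608 adjusted in limma, and p = 0.543 in the exact permutation test. Without βFbln5KO 3 the log2 difference was 0.06, and without control 4 it was 0.92.

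The spread within genotypes was itself large for these genes. The SD about the group means was above the median of all probes well above background on every array, 0.15, for all 10 members, from 0.16 for Jun to 0.90 for Nr4a1. Nr4a1 exceeded 99.0% and Npas4 94.4% of those probes, whereas Jun exceeded 54.7% and Ier2 61.8%. Control 4 was the highest control for 6 of the 10 members and the lowest for none. βFbln5KO 3 was the highest of its group for 5 members, Nr4a1, Ier2, Egr1, Junb and Dusp1, and the lowest for 3, Fos, Fosb and Npas4. βFbln5KO 2 was the lowest of its group for 5 members and the highest for 2, Fos and Fosb.

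Fos and Fosb followed each other from array to array. Over the 8 arrays Pearson's r was 0.96 (exact permutation p = 0.000694, adjusted p of 0.0313 over the 45 pairs of members) and Spearman's rho was 0.95 (exact permutation p = 0.00114, adjusted p of 0.0513). Without the 2 arrays farthest from the median of Fos, r was 0.86. The permutations ran over both genotypes, so these p-values also take in the difference between the groups. With each group's mean taken out r was 0.92, which was not tested. Within control r was 0.89 and within βFbln5KO it was 0.96, over 4 arrays each. No other pair passed an adjusted p of 0.05, and 6 of the 45 pairs had an unadjusted p under 0.05. Jun ran against both, with r of −0.71 (exact permutation p = 0.0477, adjusted p of 0.355) with Fos and −0.79 (exact permutation p = 0.0316, adjusted p of 0.285) with Fosb and rho of −0.48 with either. Without the 2 farthest arrays r was 0.35 and 0.40, so the relation rests on those arrays.

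No pair that holds Nr4a1 passed. Its r over 8 arrays was highest with Ier2, at 0.79, with Egr1, at 0.75, and with Atf3, at 0.75. For these the exact permutation p was 0.0229, 0.0309 and 0.0268, the adjusted p was 0.285 for each, and rho was 0.52, 0.60 and 0.79. Without control 4 and βFbln5KO 3, the 2 arrays farthest from the median of Nr4a1, r was 0.38, 0.47 and 0.87, so the relations with Ier2 and Egr1 rest on those arrays. With Fos, r was 0.20 over all 8 arrays, but 0.77 within control and −0.95 within βFbln5KO, over 4 arrays each, and with Fosb it was 0.06, 0.48 and −0.91. Whether Nr4a1 was less alike to Fos than to Ier2, Egr1 or Atf3 was not tested. All arrays share 1 slide, and 8 arrays cannot place small correlations.

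**Figure D3:**
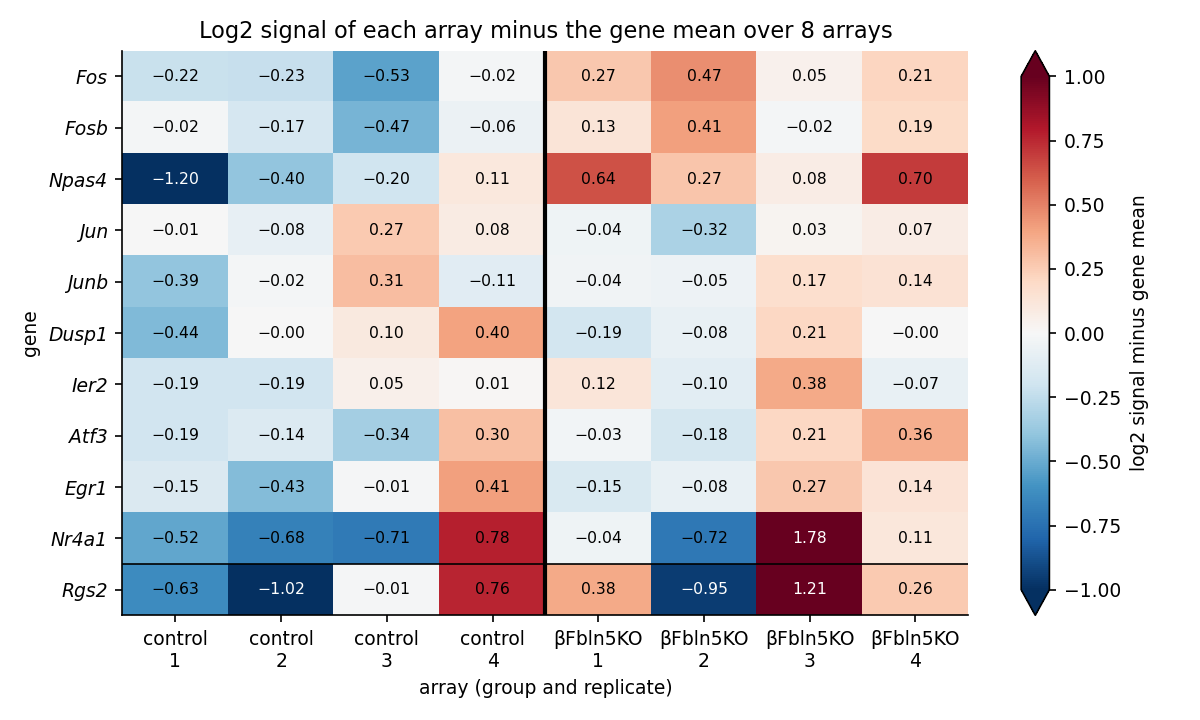
Log2 signal of each of the 8 arrays (columns, by group and replicate) minus the gene's mean over the 8 arrays, for the 10 immediate early genes and, below the line, Rgs2 (rows). Red is above and blue below the gene's mean, and the printed numbers give the value. Fos and Fosb are lowest in control 3 and highest in βFbln5KO 2, while Nr4a1 and Rgs2 are highest in βFbln5KO 3, at 1.78 and 1.21.

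Among 13640 named genes well above background on all 8 arrays, the 5 that are no members and whose pattern was most like that of Fos were Sytl3 (r = 0.94), Syt8 (r = 0.93), Septin5 (r = 0.92), Tcaf1 (r = 0.92) and Itfg2 (r = 0.91), over 8 arrays. With the group means taken out, r with Fos was 0.85 for Sytl3, 0.78 for Syt8, 0.90 for Septin5, 0.85 for Tcaf1 and 0.89 for Itfg2. Sytl3 signal was −1.78, −1.997, −2.23 and −1.78 in control and −1.61, −1.42, −1.63 and −1.69 in βFbln5KO, lowest in control 3 and highest in βFbln5KO 2 as for Fos. For Nr4a1, taken up after its values were seen, the most alike were Map3k12 (r = 0.98), Tob1 (r = 0.97), Tuft1 (r = 0.97), Bambi (r = 0.97) and Arl4d (r = 0.96). Tob1, an antiproliferative gene that is itself quickly induced, read 1.26, 1.24, 1.24 and 1.75 in control and 1.42, 1.09, 1.91 and 1.38 in βFbln5KO, with the same high arrays, control 4 and βFbln5KO 3. Each was picked as the most alike of all these genes and is given as a description with no test.

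A wider list of 79 genes that the same signals induce held no gene with an adjusted p under 0.05 in limma. All 79 were measured, 64 of them well above background on every array, 9 on some and 6 on none. At an unadjusted p under 0.05, 3 of the 64 were higher and none lower, beside the 0.853% and 5.42% of all such probes, and the median log2 difference of the 64 was 0.07. A further 2 genes that passed at an unadjusted p, Egr4 and Batf, stayed below that mark on all 8 arrays and are given no direction.

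Arc, which neurons transcribe at once on calcium entry and which codes for a synaptic protein, read −2.34, −2.20, −2.52 and −2.30 in control and −2.14, −1.97, −1.31 and −1.30 in βFbln5KO. Its groups did not overlap, and the log2 difference was 0.66 (SE 0.21, unadjusted p of 0.0111 and adjusted p of 0.0780 in limma). Over the probes that passed the filter on dim signals the adjusted p of Arc was 0.657. Gem, a small GTPase that restrains voltage-gated calcium channels, read −1.56, −1.65, −1.17 and −0.97 in control and −1.09, −1.11, −0.18 and −0.72 in βFbln5KO. The groups overlapped, and the log2 difference was 0.56 (SE 0.23, unadjusted p of 0.0374 and adjusted p of 0.166). Nfkbiz, a nuclear regulator of NF-κB, differed by 0.25 (SE 0.10, unadjusted p of 0.0427 and adjusted p of 0.182). The unadjusted p of Arc stayed under 0.05 in 18 of 19 alternative settings, that of Gem in 11 of 19 and that of Nfkbiz in 5 of 18. Without βFbln5KO 3 Gem differed by 0.37 (unadjusted p of 0.0846 in limma), and without control 1 Nfkbiz differed by 0.16 (unadjusted p of 0.0939 in limma).

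By role, the 11 relatives of AP-1 and EGR had 5 genes well above background on every array, with a median log2 difference of 0.04. The 3 largest differences were 0.21 for Fosl2, 0.08 for Jdp2 and −0.04 for Jund. Of 21 other induced transcription factors, 20 were so measured (median 0.06), and Cebpd, Bhlhe40 and Myc differed most, by 0.41, 0.35 and 0.34. None of these 6 genes passed an unadjusted p of 0.05, and their groups overlapped.

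Of 27 induced feedback inhibitors, 25 were measured on every array (median 0.11). After Gem the largest differences were 0.45 (SE 0.49) for Rgs2, which speeds the shutdown of G proteins, and 0.30 (SE 0.14) for Socs3, a brake on cytokine receptors. Rgs2 read 3.44, 3.04, 4.06 and 4.82 in control and 4.44, 3.12, 5.27 and 4.33 in βFbln5KO, highest in control 4 and βFbln5KO 3 as Nr4a1 was. Of 20 induced secreted and effector genes, 14 were measured on every array (median 0.0096), and beside Arc the largest differences were −0.70 (SE 0.35) for Homer1 and 0.38 (SE 0.53) for Tnf. Tnf rested on 1 array, at −1.19 in βFbln5KO 1 and between −3.84 and −3.21 on the other 7.

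The same arrays that were high for Nr4a1, control 4 and βFbln5KO 3, were most often high among the 64 genes. βFbln5KO 3 was the highest array of its group for 39 genes, with a median of 0.17 above the group mean, and βFbln5KO 2 the lowest for 32, with a median of −0.16. Control 4 was the highest control for 29 genes (median 0.10) and control 1 the lowest for 27 (median −0.11), although control 3 and not control 1 was lowest for Nr4a1.

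**Figure D4:**
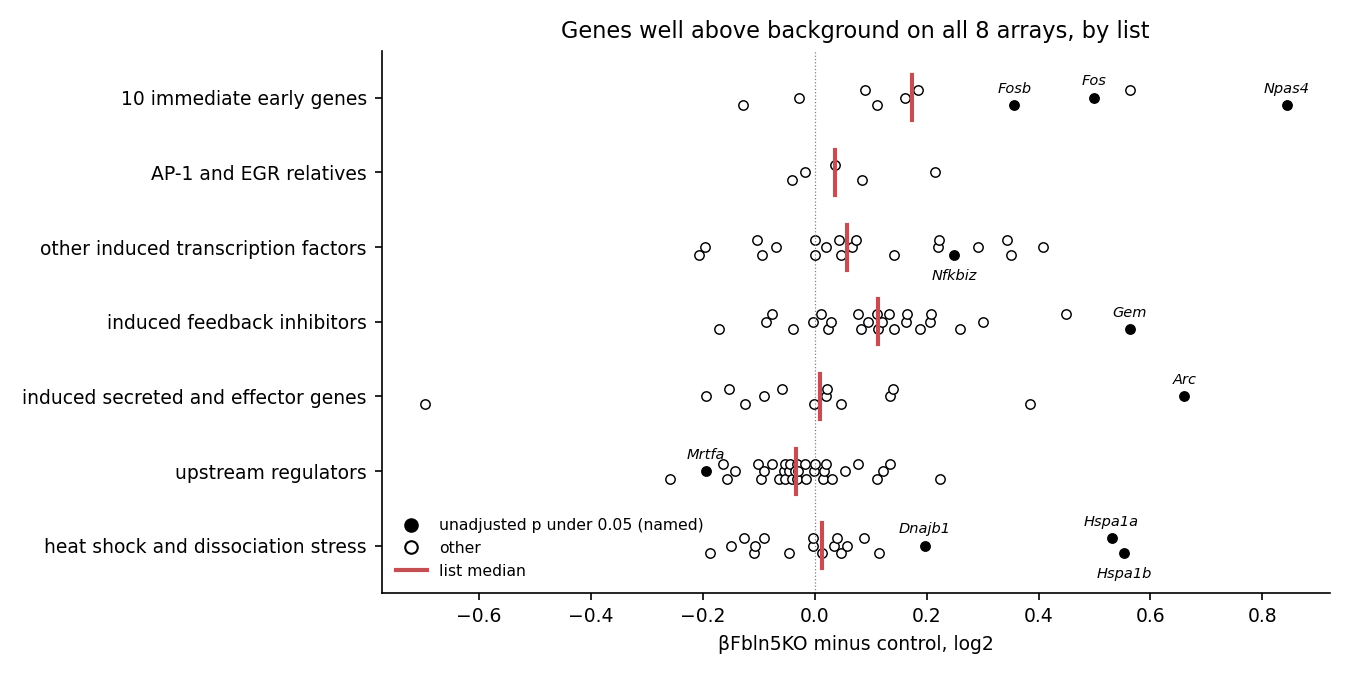
Log2 difference, βFbln5KO minus control (x axis), of each gene well above background on all 8 arrays, by list (y axis); red bars are list medians. Filled points have an unadjusted p under 0.05 in limma and are named. Fos, Fosb and Npas4 lie to the right in the top row, whose median is 0.17, and the medians of the other lists lie between −0.03 and 0.11.

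The kinases, calcium enzymes and resident factors that act on immediate early genes showed little difference. All 35 were measured, 34 of them well above background on every array, with a median log2 difference of −0.03 and differences from −0.26 to 0.22. None passed an adjusted p of 0.05 in limma, and at an unadjusted p under 0.05 none was higher and 1 was lower, where 5.42% of all probes well above background on every array were lower. This was Mrtfa, the actin-regulated coactivator of serum response factor, which read 0.54, 0.53, 0.77 and 0.54 in control and 0.37, 0.45, 0.53 and 0.25 in βFbln5KO, a log2 difference of −0.19 (SE 0.08, adjusted p of 0.168). The other large differences were −0.26 (SE 0.12) for the calcineurin target Nfatc1 and 0.22 (SE 0.16) for Rps6ka5, a kinase of CREB.

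Heat shock and dissociation genes stand beside immediate early genes in tissue taken apart by enzymes. All 19 were well above background on every array, with a median log2 difference of 0.01, and none passed an adjusted p of 0.05. At an unadjusted p under 0.05, 3 were higher and none lower, beside 0.853% and 5.42% of all probes well above background on every array. Hspa1a, the inducible HSP70, read −0.73, 0.13, −0.03 and 0.13 in control and 0.42, 0.35, 0.42 and 0.43 in βFbln5KO, with no overlap. Its log2 difference was 0.53 (SE 0.18, adjusted p of 0.0909 in limma, and 0.668 over the probes that passed the filter on dim signals). Hspa1b, a near-identical neighbour whose transcripts either probe may detect, differed by 0.55 (SE 0.19), and Dnajb1, the HSP40 partner of both, by 0.20 (SE 0.07). Control 1 was the lowest array for Hspa1a and Hspa1b, as it was for Npas4. Without it the log2 difference of Hspa1a was 0.33 (unadjusted p of 0.000768, adjusted p of 0.154 in limma, within a range of 0.0849 to 1 over the alternative settings). In that fit 4 genes of the list were higher at an unadjusted p under 0.05, and the count ran from 2 to 4 over the 19 alternative settings.

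Exocrine RNA also differed between arrays. The 10 acinar markers summed to 1466, 1246, 3280 and 2668 times the 75th percentile on control arrays 1 to 4 and to 1360, 822, 830 and 2035 on βFbln5KO arrays 1 to 4. The probe of Cela2a was the brightest, and none was below background. Control 3, the highest of these, was the lowest array for Fos and Fosb, whereas control 4, the next, was the highest control for Fos. Without the 3 arrays highest in acinar RNA, control 3 and 4 and βFbln5KO 4, the log2 difference was 0.49 for Fos (adjusted p of 0.0537 in limma), 0.27 for Fosb (unadjusted p of 0.122) and 1.13 for Npas4 (adjusted p of 0.0490), with 2 control arrays against 3. In that fit 23.1% of all probes passed an adjusted p of 0.05. Summed macrophage markers, with the probe of C1qa the brightest, were 10.9 to 12.6 in control and 10.4 to 12.9 in βFbln5KO. Summed endothelial markers, with the probe of Esm1 the brightest, were 47.7 to 57.5 and 46.6 to 52.1. Alpha cell markers, with the probe of Gcg the brightest, summed to 276 to 313 in control and to 248 to 278 in βFbln5KO. The part of other cells in the differences of Fos, Fosb and Npas4 was not tested beyond these values.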

How the data were processed

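The arrays carried Agilent's mouse 8x60K design, and per the file headers the spots were read with Feature Extraction 11.0.1.1. For each array the authors deposited the processed signal, a background-subtracted and spatially detrended intensity with no scaling between arrays, with marks for outlying spots and for spots well above background. Their deposited value table holds 35553 probes, each value being a ratio of the processed signal to 1 number per array, which bears out its probe names and its linear scale (99.8% of values within 0.01%). It was used as an alternative only.

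Here log2 of the processed signal of 59305 spots was shifted by each array's 75th percentile. Outlier values (0.356%) were dropped, replicate spots averaged, and 32994 of 56605 probes (58.3%) named through RefSeq accessions (GRCm38.p6). The brightest probe stood for a gene. Groups were compared with limma 3.58.1 (lmFit, eBayes with trend) in R 4.3.3, adjusted by Benjamini-Hochberg over all probes, and single genes by exact two-sided permutation tests. The fit was tested on simulated data. The number of arrays limits the precision.

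Named genes were the 10 members, Fbln5, the 3 genes of each other list with the largest absolute difference among those well above background on all arrays, any gene past an adjusted p of 0.05, the 5 most like Fos and, of a marker list, the gene with the brightest probe. Arc, Gem, Nfkbiz, Hspa1a, Hspa1b and Dnajb1, where outside that rule, and the genes most like Nr4a1 were named after their values were seen. The members and all lists were chosen with earlier results of these data known. Alternatives were normexp (offset 50), quantile normalization, a filter on dim probes, a common floor (−4.19), eBayes without trend, outliers kept, the mean over probes, the methods' t-test, the deposited table, a replicate block, each array left out, and, chosen after seeing the data, the 3 arrays highest in acinar RNA left out. Promoters were searched in Python 3.11.15, and figures drawn with matplotlib 3.10.9.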

Additional observations from a re-analysis of the deposited data

Results flagged for a closer look

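Nr4a1 on the control arrays read 2.30, 2.15, 2.12 and 3.60, and control 4 lay far from the others: its gap to the next array made up 0.875 of the whole range, past the 95% limit of Dixon's test for 4 values. It was the only one of 22 groups examined, both groups of the 10 members and Fbln5, to pass that limit, and chance passes about 1 in 20. Rgs2 was also highest among the controls on that array, at 4.82. A cause was not tested.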

How the results depend on the processing

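Over 19 alternative settings the median log2 difference of the 10 members stayed above 0 (0.07 without βFbln5KO 3 to 0.29 without the 3 arrays highest in acinar RNA), and no member was lower at an unadjusted p under 0.05 in any of them. Of the members, 0 passed an adjusted p of 0.05 except 1 without βFbln5KO replicate 4 (Fos) and 1 without those 3 acinar-high arrays (Npas4), fits in which 20.4% and 23.1% of all probes passed. With the deposited table the members higher at an unadjusted p came to 1 (Fos), because the table holds 7 of the 10 by these probes and lacks Fosb, Ier2 and Npas4. At an unadjusted p the wider list had 4 genes higher and 1 lower in βFbln5KO. These numbers were 1 and 0 with normexp and with a common floor, 2 higher with quantile normalization and without the trend, 1 higher with the methods' t-test, and 0 lower with the filter on dim probes and with the deposited table. Its adjusted calls were 1 without the trend (Batf, dim; 11.6% of all probes passed) and 5 without the 3 acinar-high arrays (Socs3, Gadd45b and the dim Fosl1, Egr3 and Cxcl2). Leaving out 1 array at a time gave 0 to 1 adjusted member calls, and in the wider list 1 to 8 higher and 0 to 2 lower. The smallest count of higher genes, 1, came without control 1, and 7 and 8 without control 3 and control 4. The sign turned for Junb (−0.0019 without control 1, otherwise up to 0.23), Egr1 (−0.0401 without control 2, up to 0.24 with another array left out, and 0.30 without the 3 acinar-high arrays) and Dusp1 (−0.18 to 0.10, above 0 without control 3, control 4 or βFbln5KO 1, and 0.20 without the 3 acinar-high arrays), none of which passed a test. The causes were not tested. Same-numbered arrays' deviations correlated by 0.20, 0.30, −0.22 and −0.02. The same-numbered βFbln5KO array was the best match of control 1 and control 2, and not of control 3 and control 4. So few correlations cannot tell whether the replicate numbers pair the arrays. With the replicate number as a block, 0 members passed an adjusted p of 0.05 and 3 were higher at an unadjusted p, with a median difference of 0.17, and in the wider list 5 were higher. The number of arrays limits what could be told apart, and the differences of Junb, Egr1 and Dusp1 lay within the spread between arrays.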
